A study of Mus musculus with 28 samples.

Results

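Type I interferon response genes are the genes that cells switch on when an interferon of the alpha or beta class reaches its receptor. The set described here was a fixed list of 43 gene symbols, matched by symbol to the rows of a table of unique molecular identifier (UMI) counts. All 43 had a row among the 14617 genes of the table.

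The study was a bone marrow chimera experiment in mice, read out by MARS-seq, a 3′-end RNA sequencing method in which each UMI stands for 1 captured polyA transcript. The hosts of every group were Cx3cr1 gfp/+ mice that were lethally irradiated and given marrow either from Vav-Cre: hDNMT3A fl/fl donors (mutant) or from hDNMT3A fl/fl donors without Cre (control). Vav-Cre recombines in blood-forming cells, so Cre can act in the donor cells of a mutant chimera and is absent from its host cells. At 16 weeks after transplantation, GFP+ host cells and GFP- donor cells were sorted, up to 100000 of each, from the brain parenchyma, where the labels call them microglia, and from the leptomeninges, where the labels call them macrophages, with actinomycin D present during isolation. The resulting 8 groups were control and mutant host microglia, control and mutant donor microglia, and control and mutant donor leptomeningeal cells with 4 libraries each, and control and mutant host leptomeningeal cells with 2 libraries each. All 8 groups share the irradiation, the transplantation and the Cx3cr1 gfp/+ host, and donor cells of both genotypes carry hDNMT3A fl/fl. The labels do not say that libraries of a group came from separate animals, and p-values here reflect library-to-library variation, which may be technical.

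Interferon receptors signal through JAK kinases to STAT proteins, among them STAT2, which joins IRF9 in a complex, ISGF3, that binds interferon-stimulated response elements (ISREs) in promoters. The induced proteins include sensors of foreign nucleic acid, enzymes that degrade or stall viral RNA, membrane proteins that block entry or release of virus, and the factor IRF7, which amplifies interferon production. In the brain, microglia and border macrophages both carry the receptor, and a low level of the pathway in the absence of infection is known as tonic interferon signalling.

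Promoter sequences show where the response element sits in members described below, among them the copies Ifit3 and Ifit3b. RefSeq promoters of the mouse assembly GRCm38.p6 were found for 32 of the 43 members, and the 250 bases before each gene start were searched on both strands. The ISRE core, spelled GAAA, any 2 bases, GAAA, was present in 13 of 32 members, or 40.6%, and in 936 of 27025 symbols with a promoter, or 3.46%. The longer form, the core followed directly by CT, which overlaps the core, was present in 7 of 32 members, or 21.9%, against 0.255% of all symbols. The interferon-gamma-activated site TTCNNNGAA was present in 5 of 32 members, or 15.6%, against 8.13%. The windows below hold in capitals the core nearest the gene start, with 20 bases on each side. They read 5′ to 3′ on the strand of the gene. Where the capitals read TTTC first, the core lies on the opposite strand.
Isg15, chr4:156200855-156200904, minus strand: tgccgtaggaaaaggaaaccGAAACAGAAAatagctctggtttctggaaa
Bst2, chr8:71537567-71537616, minus strand: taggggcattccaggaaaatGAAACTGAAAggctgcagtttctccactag
Ifi207, chr1:173741821-173741870, minus strand: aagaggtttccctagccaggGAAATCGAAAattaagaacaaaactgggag
Slfn5, chr11:82951927-82951976, plus strand: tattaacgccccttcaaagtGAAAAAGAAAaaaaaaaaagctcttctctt
Oas3, chr5:120777705-120777754, minus strand: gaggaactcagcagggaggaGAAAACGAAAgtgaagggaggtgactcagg
Ifit3, chr19:34583387-34583436, plus strand: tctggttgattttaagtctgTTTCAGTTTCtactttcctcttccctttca
Ifit3b, chr19:34607783-34607832, plus strand: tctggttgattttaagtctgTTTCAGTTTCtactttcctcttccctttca
By the RefSeq starts, the marked core began 66 bases before Isg15, 124 before Bst2, 41 before Ifi207 and 155 before Slfn5. It began 75 bases before Oas3, 122 before Ifit3 and 154 before Ifit3b. Further cores began 78 and 72 bases before Isg15, 130 before Bst2, 156 before Ifit3 and 188 before Ifit3b. The longer form lay at the further core and not at the marked one in 3 of these genes. It began 130 bases before Bst2, 158 before Ifit3 and 190 before Ifit3b. The Ifit3 and Ifit3b windows were the same 50 bases at separate positions, and these neighbouring genes are close copies of each other. GENCODE M21 starts Slfn5 at 82951349, upstream of its window, so by that annotation the window lies inside the gene. A match is a description of the letters in the window and not evidence of binding.

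Several members lie beside each other in the genome. In GENCODE M21 positions on mm10, Ifit1, Ifit2, Ifit3 and Ifit3b lie within 500000 bases of another member on chromosome 19, Oas1a, Oas2 and Oas3 on chromosome 5, Slfn2, Slfn5 and Slfn8 on chromosome 11, and Irf7 and Ifitm3 on chromosome 7. The 3′ ends of some members are nearly identical to those of other genes, and 3′-end counting could divide their reads. Over the last 500 bases, Oas1a matched Oas1g at 98.0% and Slfn8 matched Slfn9 at 96.8%, so the values of both members are uncertain. Slfn8 also matched Slfn10-ps at 97.4% over 501 aligned bases. Slfn2 matched Slfn3 at 95.1% over 143 bases and Ifi204 matched the predicted gene Gm18445 at 95.3% over 172 bases. Oas3 matched Gm20559 at 96.4% over 110 bases and also matched a short stretch of Il31ra. The values of Slfn2, Ifi204 and Oas3 are therefore uncertain to a lesser extent. Exons of Irf9 overlap those of Rnf31 on the same strand. Herc6, Rtp4, Parp14 and Sp100 likewise overlap exons of another gene on their own strand. Exons of Irf7 overlap those of Phrf1 on the opposite strand. Dhx58, Usp18, Oasl1, Eif2ak2, Slfn5 and Ifi35 also overlap exons of a gene on the opposite strand, so their reads may not be separable from those of that gene.

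Library totals ran from 479077 to 3066506 UMIs, so 3 UMIs, the limit that a count of 0 allows, equalled 0.978 to 6.26 counts per 1000000 UMIs of the library (CPM). Ifit1, Oas3 and Rsad2 each had 1 library with no UMI. Host cells carried the markers of their labels, and donor cells carried them at lower levels. P2ry12, a microglial purinergic receptor, averaged 3690.1 CPM in host microglia, 379 in donor microglia, 795 in host leptomeningeal cells and 95.4 in donor leptomeningeal cells. Sall1, a transcription factor of embryo-derived microglia, averaged 335 CPM in host and 17.1 CPM in donor microglia. Lyve1, a receptor of resident border macrophages, averaged 760.0 CPM in host and 170.3 CPM in donor leptomeningeal cells. Transcripts of other cells were present too. Neutrophil markers took 3.65% to 9.78% of UMIs in donor leptomeningeal libraries and 0.194% to 0.590% in host leptomeningeal libraries. Astrocyte markers took 0.105% to 0.484% in donor microglia and 0.0160% to 0.0217% in host microglia, and mitochondrial transcripts 1.58% to 4.72% and 0.114% to 0.349%. The donor microglia libraries control 1 and mutant 4 stood apart from their groups in earlier work on these data. They also had the lowest totals, 479077 and 487382 UMIs. Counts of members that passed in comparisons with donor microglia are given with and without both. Other counts, such as those by role, of overlap and of other pathway genes, use all libraries.

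The member genes together took the smallest share of UMIs in host microglia and a larger share in every other population. In host microglia the share was 0.182, 0.189, 0.199 and 0.184 percent in the control libraries and 0.222, 0.185, 0.178 and 0.183 percent in the mutant libraries. In donor microglia it was 0.518, 0.374, 0.501 and 0.460 percent in the control and 0.586, 0.428, 0.372 and 0.453 percent in the mutant libraries, so the lowest donor library, at 0.372 percent, lay above the highest host library, at 0.222 percent. In leptomeningeal cells of the host it was 0.494 and 0.512 percent in the control and 0.641 and 0.466 percent in the mutant libraries. In donor leptomeningeal cells it was 0.638, 0.467, 0.619 and 0.553 percent in the control and 0.740, 0.620, 0.487 and 0.506 percent in the mutant libraries, which overlapped the host values of the same compartment. Over both genotypes the mean share was 0.190 ± 0.014 percent (SD, n = 8) in host microglia, 0.462 ± 0.073 percent (SD, n = 8) in donor microglia, 0.529 ± 0.078 percent (SD, n = 4) in host leptomeningeal cells and 0.579 ± 0.092 percent (SD, n = 8) in donor leptomeningeal cells. In sorted bulk samples, fewer cells that express a gene and less RNA of it per cell cannot be told apart.

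Bst2, Ifitm3 and Ifi27l2a were the 3 members with the most UMIs and carried much of that gap between the microglial populations. Without them the share was 0.125 to 0.156 percent in host microglia and 0.142 to 0.231 percent in donor microglia, so the libraries overlapped. Without them it was 0.244 to 0.324 percent in host and 0.224 to 0.330 percent in donor leptomeningeal cells, all above host microglia.

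**Figure D1:**
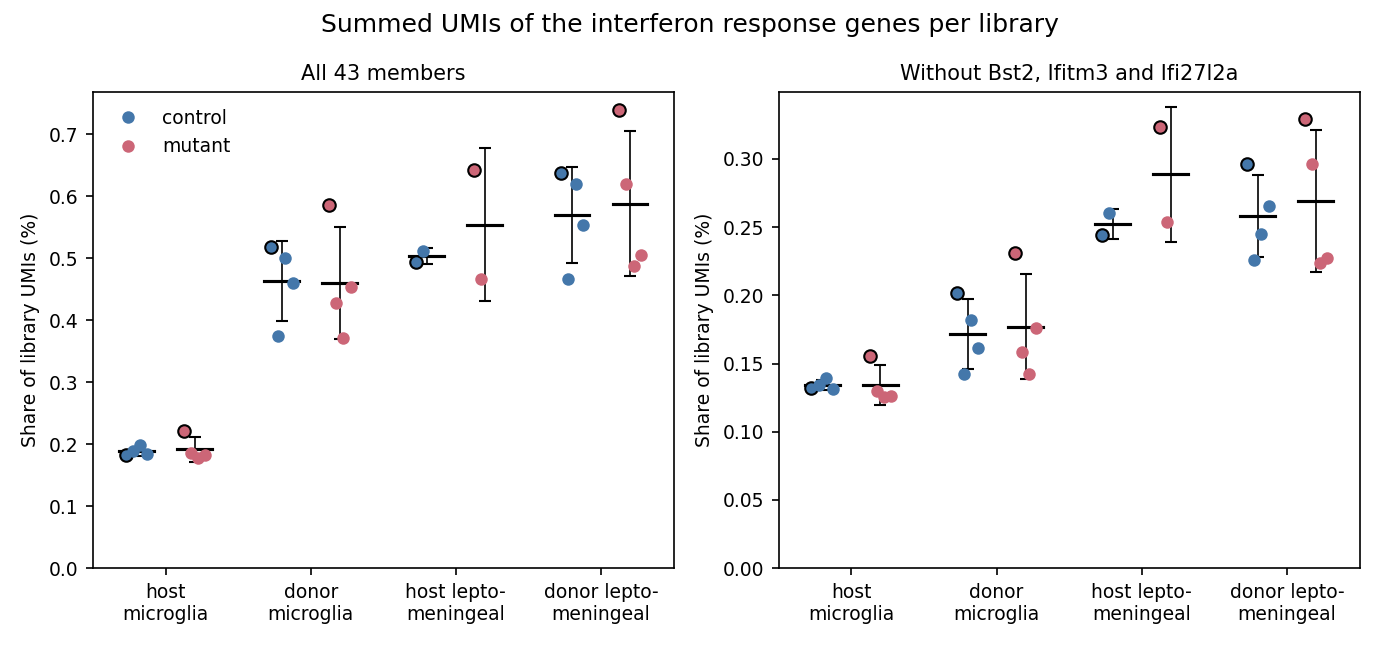
Percent of UMIs taken by the 43 members (left) and by the members other than Bst2, Ifitm3 and Ifi27l2a (right), in each library of the 8 groups. Points are libraries, black outlines mark libraries numbered 1, and bars give mean ± SD; host microglia lie between 0.178 and 0.222 percent on the left, below every other library.

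Gene by gene, 32 of the 43 members had their lowest population mean in host microglia, 7 in donor microglia, 4 in donor leptomeningeal cells and 0 in host leptomeningeal cells. The highest mean fell in donor leptomeningeal cells for 20 members and in host leptomeningeal cells for 19. It fell in donor microglia for Bst2, Irf9 and Mx2, and in host microglia for Parp9 alone. Over the 8467 genes with a mean of at least 10 CPM, host microglia held the lowest mean of 23.5% and the highest mean of 48.5%. Among the 38 members above that level, host microglia held the lowest mean of 28 and the highest mean of 1.

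**Figure D2:**
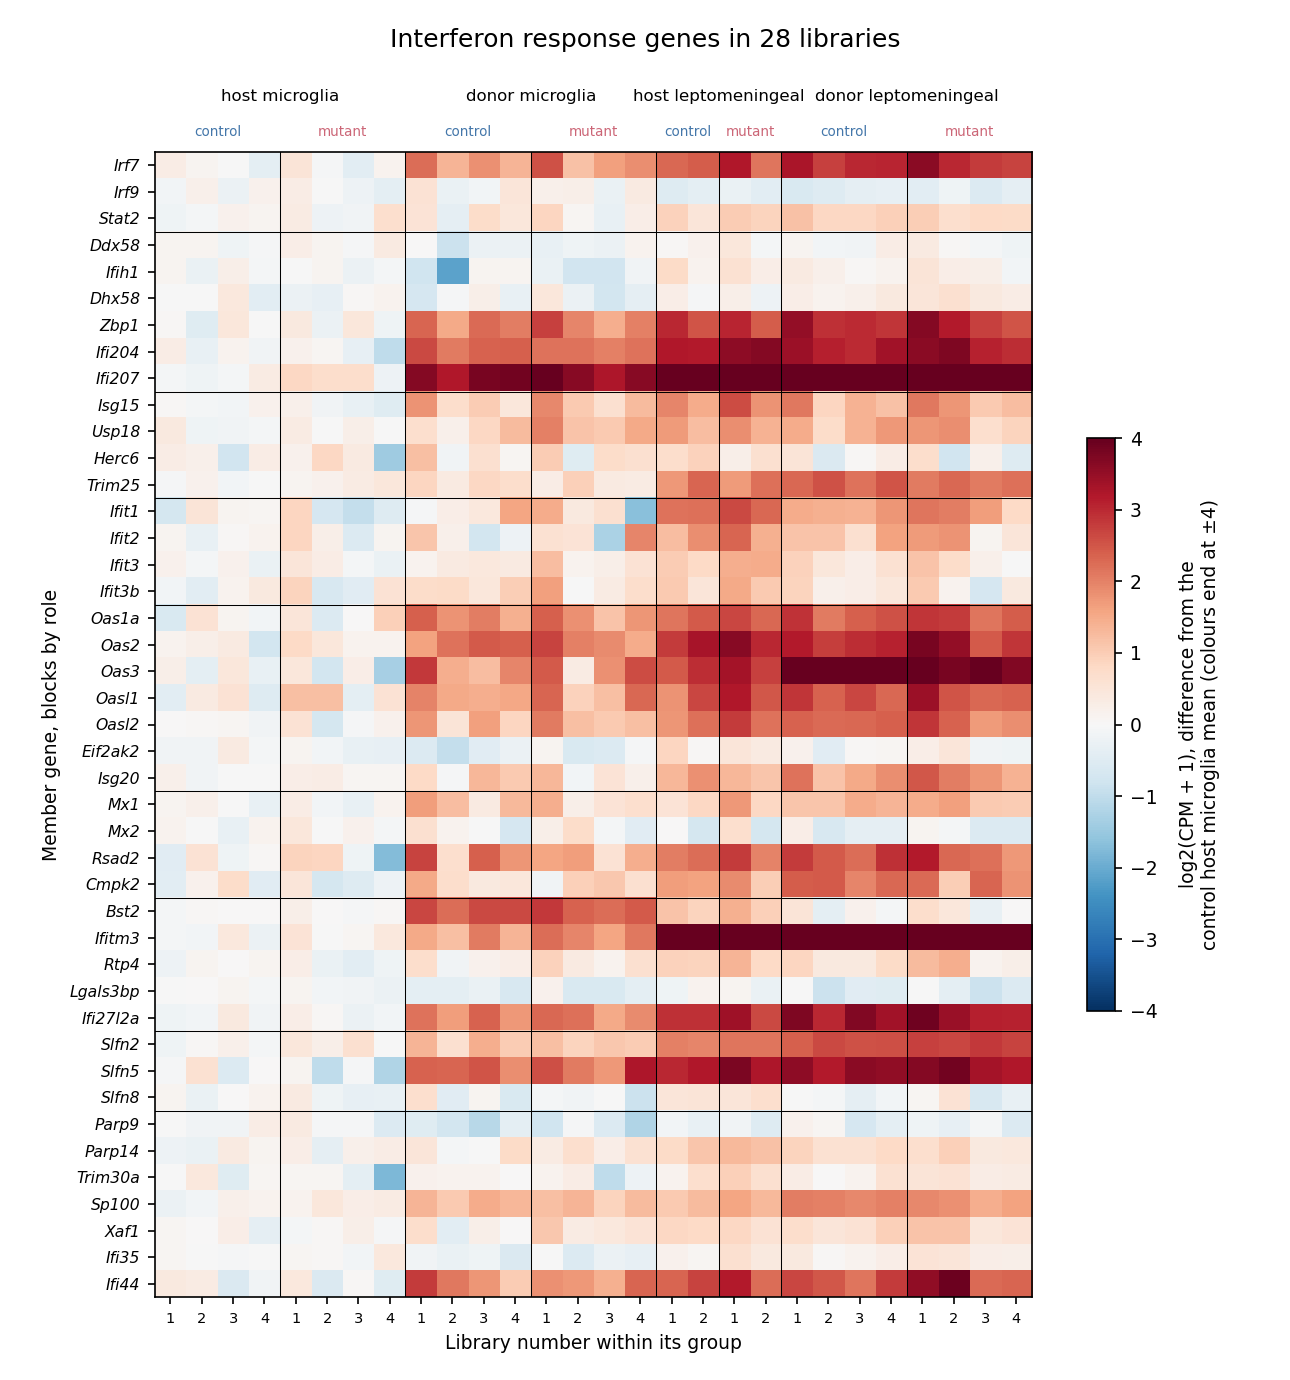
Level of each member in each library as log2(CPM + 1) minus the mean of control host microglia, with rows in blocks by role and columns by group; colours end at ±4. Most rows are near 0 in both blocks of host microglia and above 0 in the other 6 groups, while Irf9, Mx2, Parp9 and Lgals3bp stay close to 0 or vary without a common direction.

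The comparison of GFP- donor cells with GFP+ host cells in the parenchyma asked how marrow-derived microglia differ from the microglia they live among. Donor microglia had the higher level of 31 of the 43 members and the lower level of 1, Parp9, at an adjusted p under 0.05 in edgeR's quasi-likelihood test with Benjamini-Hochberg adjustment over 12327 genes. Across all genes tested, 60.4% passed in this comparison, 33.1% as higher and 27.3% as lower in donor cells. The median log2 fold change, donor over host, was 1.07 over the members and 0.04 over all genes tested. In 14 of the 43 members the 8 donor and 8 host libraries did not overlap in CPM, against 28.6% of all genes. Passing members were spread over every role: all 3 transcription factors, 3 of 6 nucleic acid sensors, 3 of 4 genes of the ISG15 system, 3 of 4 IFIT genes, 6 of 7 genes of RNA decay and translation arrest, 3 of 4 of the MX and viperin group, 4 of 5 membrane proteins, 2 of 3 Schlafen genes and 4 higher with 1 lower of the 7 others. In place of normalization by trimmed means (TMM), scaling by library totals gave 25 higher and 5 lower members, and shifted the median of all genes to −0.14. Without the donor microglia libraries control 1 and mutant 4, 26 were higher and 1 lower. Astrocyte markers and mitochondrial transcripts, at the shares given above, were also higher in every donor than in every host microglia library, and their part in the result was not tested.

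Irf7, the factor that amplifies interferon production, was measured in host microglia at 33.0, 28.9, 25.9 and 20.0 CPM in the control libraries and 38.6, 25.5, 19.7 and 29.3 CPM in the mutant libraries. In donor microglia Irf7 was at 129, 69.3, 96.8 and 69.4 CPM in the control and 159, 60.8, 84.4 and 98.5 CPM in the mutant libraries. Every donor library lay above every host library. The log2 difference for Irf7, donor minus host, was 1.95 ± 0.24 (SE; edgeR adjusted p = 3.7e-07). Stat2, a signalling subunit of ISGF3, was at 34.4, 37.4, 44.1 and 42.0 CPM and 49.8, 34.0, 35.5 and 62.9 CPM in control and mutant host microglia. Its donor values were 58.4, 30.3, 65.6 and 53.8 CPM in the control and 72.0, 41.6, 31.8 and 47.2 CPM in the mutant libraries. The Stat2 libraries overlapped widely, and the log2 difference of 0.41 ± 0.16 (adjusted p = 0.0246) fell to 0.20 (adjusted p = 0.262) without mutant donor microglia library 1. Irf9, the DNA-binding part of ISGF3, was at 82.9, 103, 76.9 and 101 CPM and 112, 89.6, 77.5 and 67.8 CPM in control and mutant host microglia. Irf9 in donor microglia was at 134, 75.1, 83.7 and 127 CPM in the control and 105, 107, 75.5 and 115 CPM in the mutant libraries. These also overlapped, with a log2 difference of 0.36 ± 0.11 (adjusted p = 0.00483), which no longer passed with library totals (0.18) or without the libraries control 1 and mutant 4 (0.21).

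The sensors fell into unlike subsets. Ifi207, a gene of the HIN-200 family around the DNA sensor IFI204, was near the counting floor in host microglia, at 3.39, 3.11, 3.43 and 4.82 CPM in the control and 7.23, 6.51, 6.57 and 3.05 CPM in the mutant libraries. Donor microglia had 58.4, 41.9, 64.0 and 65.9 CPM in the control and 85.8, 56.5, 42.7 and 57.4 CPM in the mutant libraries. No donor library came near a host library, and the log2 difference of 3.79 ± 0.18 (adjusted p = 7.53e-23) was the largest among the members. Ifi204 ranged from 3.66 to 10.7 CPM in host and from 36.8 to 58.4 CPM in donor microglia (log2 difference 2.62 ± 0.17, adjusted p = 2.83e-18). Zbp1, a sensor of nucleic acids in the Z form, ranged from 5.78 to 11.8 CPM in host and from 24.8 to 62.2 CPM in donor microglia (log2 difference 2.29 ± 0.26, adjusted p = 2.1e-08). The RNA helicases did not share this difference. The log2 difference was −0.17 ± 0.14 for Ddx58 (RIG-I), −0.30 ± 0.20 for Ifih1 (MDA5) and 0.08 ± 0.18 for Dhx58 (LGP2), and none of these passed, with 95% intervals of −0.46 to 0.12, −0.69 to 0.10 and −0.27 to 0.43.

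Isg15, the ubiquitin-like protein that is attached to other proteins during the response, was at 38.8, 35.6, 34.8 and 43.1 CPM in control and 43.8, 34.5, 30.9 and 26.9 CPM in mutant host microglia. Donor microglia had 134, 62.1, 77.1 and 52.0 CPM of Isg15 in the control and 147, 78.9, 59.6 and 92.3 CPM in the mutant libraries. The lowest donor library lay above the highest host library, and the log2 difference was 1.43 ± 0.26 (adjusted p = 7.28e-05). Usp18, which removes ISG15 and dampens the receptor, was at 11.6, 7.56, 7.83 and 8.27 CPM in control and 11.3, 8.51, 10.5 and 8.55 CPM in mutant host microglia. The donor libraries held 14.6, 10.1, 16.4 and 22.5 CPM of Usp18 in the control and 38.5, 20.3, 18.9 and 26.7 CPM in the mutant group. Control donor library 2 lay inside the host range of Usp18 and every other donor library above it. The log2 difference, donor minus host, was 1.30 ± 0.24 (adjusted p = 7.01e-06). Trim25, a ubiquitin ligase that activates RIG-I, also passed (0.67 ± 0.16), and Herc6, the ligase that attaches ISG15 in mice, did not (0.62 ± 0.35).

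Among the IFIT genes, some of whose proteins bind foreign RNA ends, Ifit3 was at 15.0, 12.5, 15.2 and 11.0 CPM in control and 18.9, 16.5, 12.5 and 11.0 CPM in mutant host microglia. Ifit3 in donor microglia was at 14.6, 17.3, 18.04 and 17.3 CPM in the control and 32.6, 14.9, 15.9 and 20.5 CPM in the mutant libraries. Mutant donor library 1 was well above the others, which lay near or inside the host range. The Ifit3 log2 difference was 0.59 ± 0.20 (adjusted p = 0.0112) with it and 0.37 (adjusted p = 0.129) without it. Ifit1 (1.07 ± 0.44) and Ifit3b (0.97 ± 0.42) passed at means of 4.00 and 4.39 CPM in donor microglia, and Ifit2 (0.47 ± 0.42) did not.

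The oligoadenylate synthetase genes, whose products activate RNase L, differed more. Oasl2, a synthetase-like gene, was at 13.1, 13.3, 13.7 and 11.7 CPM in control and 19.7, 7.51, 12.5 and 14.7 CPM in mutant host microglia. Oasl2 in donor microglia was at 45.9, 18.8, 42.6 and 24.3 CPM in the control and 58.2, 30.9, 27.8 and 30.8 CPM in the mutant libraries. Control donor library 2 lay just below the highest host library and the rest above it, and the log2 difference was 1.55 ± 0.25 (adjusted p = 4.02e-06). Oas2 was at 4.48 to 14.9 CPM in host and 24.6 to 59.2 CPM in donor microglia, with no overlap (log2 difference 2.22 ± 0.26). Oas1a (1.99 ± 0.24), Oas3 (2.73 ± 0.39) and Oasl1 (1.60 ± 0.33) passed as well, as did the exonuclease gene Isg20 (0.87 ± 0.23). Eif2ak2, which encodes the translation-arresting kinase PKR, did not pass (−0.17 ± 0.16). Of the MX and viperin group, Mx1 (1.22 ± 0.21), Rsad2 or viperin (1.91 ± 0.39) and the nucleotide kinase Cmpk2 (1.17 ± 0.40) passed, and Mx2 (0.24 ± 0.24) did not.

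Bst2, or tetherin, which holds budding virus at the cell surface, took more UMIs than any other member in donor microglia. Host microglia had 381, 417, 412 and 409.9 CPM of Bst2 in the control and 481, 409, 396 and 421 CPM in the mutant libraries. Donor microglia had 2611, 1914, 2519 and 2552 CPM in the control and 2871, 2083, 1894 and 2224 CPM in the mutant libraries. The groups were far apart, and the log2 difference was 2.66 ± 0.14 (adjusted p = 2.1e-15). Bst2 is also abundant in plasmacytoid dendritic cells, and the summed markers of that cell type took 0.0192% to 0.0390% of UMIs in donor and 0.0277% to 0.0336% in host microglia; their part in the result was not tested. Ifitm3, which blocks fusion of incoming virus, was at 43.6, 42.7, 62.7 and 39.3 CPM in control and 67.5, 46.1, 49.3 and 61.7 CPM in mutant host microglia. Its donor values were 134, 108, 197 and 121 CPM in the control and 223, 183, 139 and 205 CPM in the mutant libraries. The lowest donor library exceeded the highest host library, with a log2 difference of 1.83 ± 0.15 (adjusted p = 4.09e-11). Ifi27l2a, a small hydrophobic protein of the IFI27 family, ranged from 77.5 to 121 CPM in host and from 264 to 476 CPM in donor microglia (log2 difference 2.19 ± 0.17). Rtp4, a chaperone of membrane receptors, passed at 0.63 ± 0.20, and Lgals3bp, a secreted glycoprotein gene, did not (−0.15 ± 0.12; 466 CPM in host and 370.3 CPM in donor microglia).

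Slfn5, a Schlafen gene whose family restrains translation and growth, ranged from 1.22 to 6.67 CPM in host and from 15.9 to 47.2 CPM in donor microglia (log2 difference 2.98 ± 0.25, adjusted p = 4.29e-14). Slfn2 also passed (1.11 ± 0.11), and Slfn8 did not (0.09 ± 0.16). Of the remaining members, Ifi44 (2.68 ± 0.42), the nuclear body gene Sp100 (1.29 ± 0.11), the apoptosis factor gene Xaf1 (0.56 ± 0.16) and the ADP-ribosyltransferase gene Parp14 (0.49 ± 0.13) were higher in donor microglia, and Trim30a (0.31 ± 0.21) and Ifi35 (−0.16 ± 0.10) did not pass. The host microglia means of Ifi44 (1.21 CPM) and Oas3 (1.40 CPM) were at or near the limit of 3 UMIs, so the sizes of their differences are uncertain. Parp9, which works with the ubiquitin ligase DTX3L, was the exception in direction. Parp9 ranged from 20.1 to 38.6 CPM in host and from 12.3 to 28.8 CPM in donor microglia, with overlapping libraries and a log2 difference of −0.45 ± 0.18 (adjusted p = 0.0263). Its exons overlap those of Dtx3l on the opposite strand, and whether counting used the strand is not stated.

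**Figure D3:**
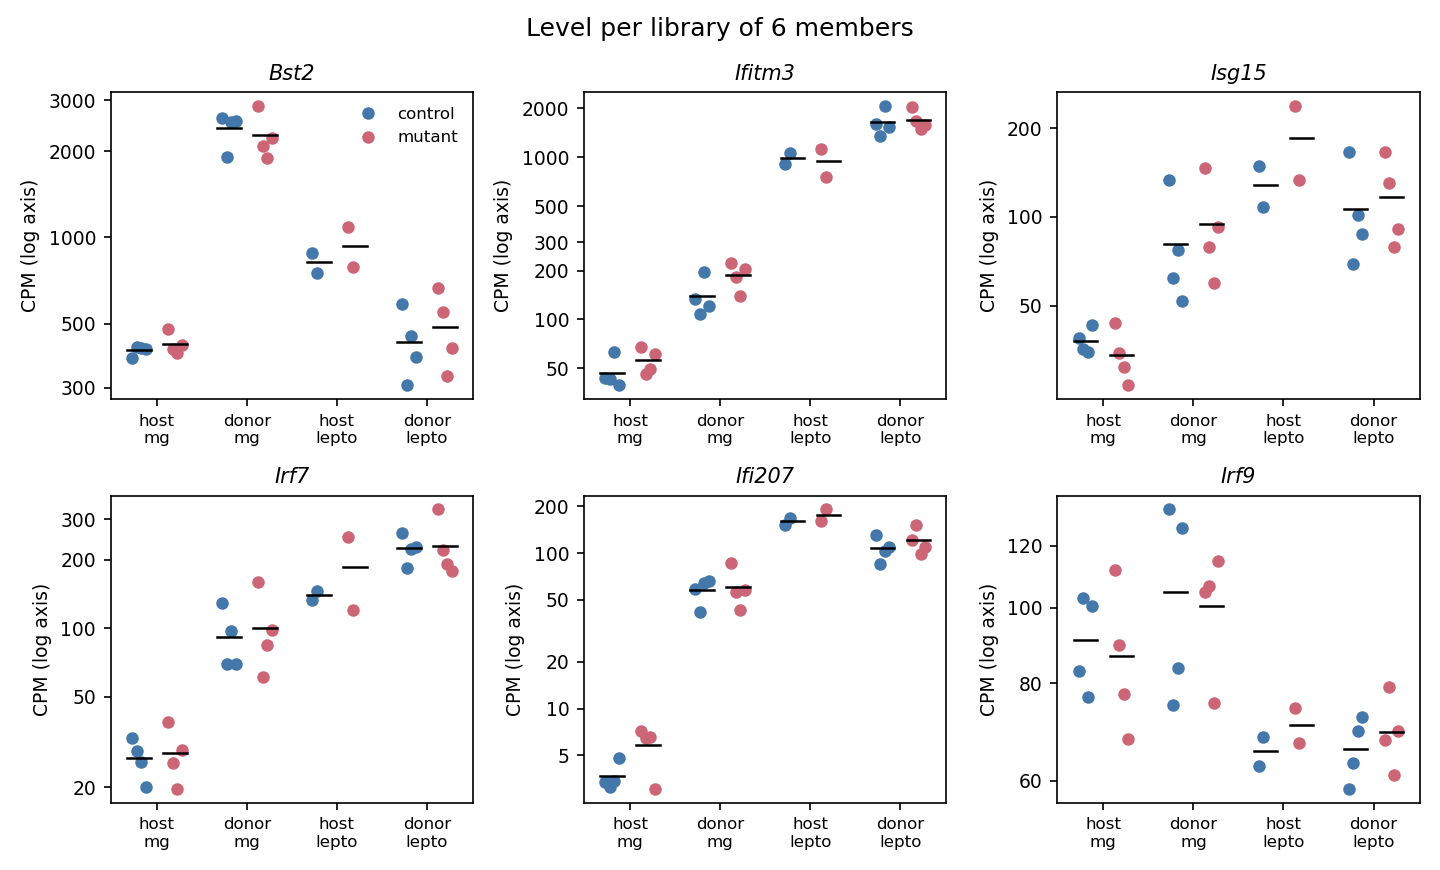
CPM on a log axis of Bst2, Ifitm3, Isg15, Irf7, Ifi207 and Irf9 in each library of the 8 groups (mg, microglia; lepto, leptomeningeal), with bars at group means. Bst2 is highest in donor microglia at 1894 to 2871 CPM, and Ifitm3 is highest in donor leptomeningeal cells. Means of Irf9 run from 67.6 CPM in donor leptomeningeal cells to 102.6 CPM in donor microglia.

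The rest of the pathway passed in both directions. A list of 114 other genes of the interferon pathway had 101 rows in the table, of which 100 were tested; 38 were higher and 29 lower in donor microglia, with a median of 0.21, near the 33.1% and 27.3% of all genes. Of the 13 genes of nucleic acid sensing and interferon induction, 12 were lower and 1, the kinase gene Ikbke, was higher (1.12 ± 0.39). Sting1, the adaptor for cytosolic DNA sensing, was at 626 to 734 CPM in host and 160 to 269 CPM in donor microglia, with no overlap (log2 difference −1.49 ± 0.09, adjusted p = 8.96e-20). The adaptor gene Myd88 (−0.84 ± 0.10) and the transcription factor gene Irf5 (−0.72 ± 0.09) were lower as well. Among 9 receptor, kinase and STAT genes 3 were higher and 4 lower: Ifnar1, a chain of the type I receptor, was higher (1.28 ± 0.12), and Ifngr1, a chain of the interferon-gamma receptor, was lower (−1.24 ± 0.09). Of 55 other interferon-induced genes, 26 were higher, among them Ifitm2 (3.47 ± 0.14), and 6 were lower. Of 15 genes that respond more to interferon gamma, 6 were higher, among them the MHC class II regulator Ciita (4.23 ± 0.21), and 4 were lower, among them Igtp (−1.21 ± 0.14). Of 8 negative regulators, 2 were higher, among them Nlrc5 (1.90 ± 0.21), and 3 were lower, among them Irf2 (−0.90 ± 0.10). Among the listed interferon genes themselves only Ifng had a row, and the others were not analysed here. Ifng passed in the parenchyma, between the host compartments and in the interaction test described below. Its parenchymal call was lost under 2 alternative settings. Ifng averaged 0.84 CPM in host microglia, below the limit of 3 UMIs there, and 5.46 CPM in host leptomeningeal cells. The sizes of its differences are therefore uncertain.

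The comparison of donor with host cells in the leptomeninges asked the same question of the border macrophages. Here 11 of the 43 members were higher and 2, Bst2 and Ifi207, lower in donor cells, at medians of 0.23 for the members and 0.02 for all genes. Across all genes 30.2% passed, 16.9% as higher and 13.3% as lower, so the 13 of 43 members that passed were near this background. In 5 members the 8 donor and 4 host libraries did not overlap, against 23.5% of all genes. The split depended on scaling: with library totals 4 members were higher and 7 lower, and the median was −0.01 for the members and −0.22 for all genes. Neutrophil markers, at 3.65% to 9.78% of UMIs in donor and 0.194% to 0.590% in host libraries, moved with this contrast. So did monocyte markers, at 0.299% to 0.609% against 0.0589% to 0.0893%. T and NK cell markers went the other way, at 0.0157% to 0.0238% against 0.0266% to 0.0442%. Microglia markers did too, at 0.1205% to 0.229% of UMIs in donor and 0.549% to 0.988% in host libraries. The part of these transcripts in the result was not tested. The count also rested on single host libraries: 7 members passed without control host leptomeningeal library 1, 8 without control library 2 and 6 without mutant library 2.

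Irf7 was at 133 and 146 CPM in control and 252 and 121 CPM in mutant host leptomeningeal cells, and at 263, 183, 222 and 228 CPM in control and 332, 221, 191 and 178 CPM in mutant donor cells. Mutant host library 1 lay inside the donor range and the other 3 host libraries below it. The log2 difference of 0.74 ± 0.24 (adjusted p = 0.0213) was 0.48 (adjusted p = 0.185) without mutant host library 2. Stat2 was at 75.3 and 55.8 CPM in control and 81.3 and 73.2 CPM in mutant host cells, and at 89.4, 70.4, 70.4 and 76.4 CPM in control and 79.1, 63.7, 68.7 and 67.3 CPM in mutant donor cells. Irf9 was at 62.6 and 68.3 CPM in control and 74.3 and 67.1 CPM in mutant host cells, and at 58.6, 63.3, 69.5 and 72.3 CPM in control and 67.6, 79.1, 61.0 and 69.4 CPM in mutant donor cells. For both ISGF3 genes host and donor libraries overlapped, and neither difference passed (0.27 ± 0.16 for Stat2 and 0.23 ± 0.14 for Irf9).

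Isg15 was at 149 and 108 CPM in control and 238 and 134 CPM in mutant host leptomeningeal cells, and at 166, 69.1, 102 and 87.4 CPM in control and 166, 131, 78.8 and 91.0 CPM in mutant donor cells. The host values lay among or above the donor ones, and the log2 difference of −0.25 ± 0.26 did not pass (adjusted p = 0.534, 95% interval −0.79 to 0.30). Usp18 was at 30.9 and 21.6 CPM in control and 34.1 and 24.4 CPM in mutant host cells, and at 26.4, 15.0, 24.5 and 31.0 CPM in control and 32.0, 34.3, 14.4 and 17.1 CPM in mutant donor cells. These overlapped fully at a log2 difference of 0.03 ± 0.22. None of the 4 IFIT genes passed. Ifit3 was at 27.7 and 23.9 CPM in control and 38.2 and 38.6 CPM in mutant host cells, and at 26.0, 18.6, 16.2 and 21.0 CPM in control and 30.6, 22.7, 15.4 and 13.2 CPM in mutant donor cells. The host values lay at the top of the donor range or above it. The log2 difference for Ifit3 was −0.40 ± 0.20 (adjusted p = 0.129).

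Oasl2 was at 46.0 and 63.8 CPM in control and 96.4 and 62.4 CPM in mutant host leptomeningeal cells, and at 70.0, 65.5, 67.2 and 71.9 CPM in control and 101, 69.9, 44.7 and 49.9 CPM in mutant donor cells, which overlapped (0.28 ± 0.21). Oas3, in contrast, ranged from 12.7 to 24.1 CPM in host and from 31.4 to 50.7 CPM in donor cells, with no overlap. Its log2 difference of 1.49 ± 0.23 (adjusted p = 1.57e-06) was the largest of the members in the leptomeninges. The 3′ matches of Oas3 given above leave some uncertainty in this value. After Ifitm3, which came next, Cmpk2 (0.87 ± 0.31), Slfn2 (0.83 ± 0.11) and Sp100 (0.80 ± 0.12) followed among the members that were higher in donor cells, with Cmpk2 losing its call under 9 of the alternative settings.

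Ifitm3 was at 903 and 1064 CPM in control and 1126 and 759 CPM in mutant host leptomeningeal cells, and at 1602, 1359, 2073 and 1535 CPM in control and 2051, 1667, 1500.2 and 1588 CPM in mutant donor cells. All donor libraries lay above all host libraries, at a log2 difference of 1.03 ± 0.16 (adjusted p = 1.43e-05). Bst2 was at 885 and 753 CPM in control and 1087 and 788 CPM in mutant host cells, and at 585, 306, 454 and 383 CPM in control and 666, 549, 328 and 411 CPM in mutant donor cells. All donor libraries lay below all host libraries, at −0.70 ± 0.16 (adjusted p = 0.000981), the reverse of the order in the parenchyma. Ifi207 was at 151 and 169 CPM in control and 161 and 190.5 CPM in mutant host cells, and at 129.9, 85.4, 104 and 109.6 CPM in control and 122, 152, 98.5 and 109.8 CPM in mutant donor cells. The highest donor library was just above the lowest host library, and the log2 difference of −0.33 ± 0.12 (adjusted p = 0.0379) lost its call under 9 alternatives.

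Among the 100 other pathway genes tested, 28 were higher and 13 lower in donor leptomeningeal cells, against 16.9% and 13.3% of all genes. Stat3 (0.48 ± 0.11) and Jak2 (0.45 ± 0.17) were higher, and both calls were lost with library totals. Tlr3, the endosomal sensor of double-stranded RNA, was lower (−1.56 ± 0.30) and Ikbke higher (1.61 ± 0.31). Of the other interferon-induced genes, 18 were higher, among them Slfn1 (2.39 ± 0.25) and Ifitm6 (3.39 ± 0.30), and 5 were lower.

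Whether the donor-to-host difference itself depended on the compartment was tested as an interaction, the difference in the leptomeninges minus that in the parenchyma. Smaller and larger here refer to the signed donor-minus-host value. For 22 members the difference was smaller in the leptomeninges and for 2, Parp9 and Ifi35, it was larger. For these 2 the sign changed. Parp9 went from −0.45 in the parenchyma to 0.28 in the leptomeninges, and Ifi35 from −0.16 to 0.22. Of these values, only that of Parp9 in the parenchyma passed. Across all genes 42.3% passed, 23.2% as smaller and 19.1% as larger. The median was −0.80 over the members and −0.05 over all genes. Among members with a mean of at least 10 CPM, Ifi207 had the largest value (−4.12 ± 0.22, adjusted p = 2.86e-20), followed by Bst2 (−3.36 ± 0.20, adjusted p = 3.95e-13), Slfn5 (−2.53 ± 0.31), Ifi204 (−2.50 ± 0.21) and Oas2 (−2.06 ± 0.33). Of the other fixed members, Isg15 (−1.68 ± 0.37), Usp18 (−1.27 ± 0.32), Oasl2 (−1.27 ± 0.32), Irf7 (−1.22 ± 0.33), Ifit3 (−0.996 ± 0.29) and Ifitm3 (−0.80 ± 0.22) passed. Stat2 (−0.14 ± 0.23) and Irf9 (−0.13 ± 0.18) did not. By role, 5 of the 7 genes of RNA decay and translation arrest, 3 of 4 IFIT genes, 3 of 5 membrane proteins, 3 of 6 sensors and 2 of 4 genes of the ISG15 system had the smaller difference in the leptomeninges. Without the donor microglia libraries control 1 and mutant 4, 18 members were smaller and 2 larger.

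**Figure D4:**
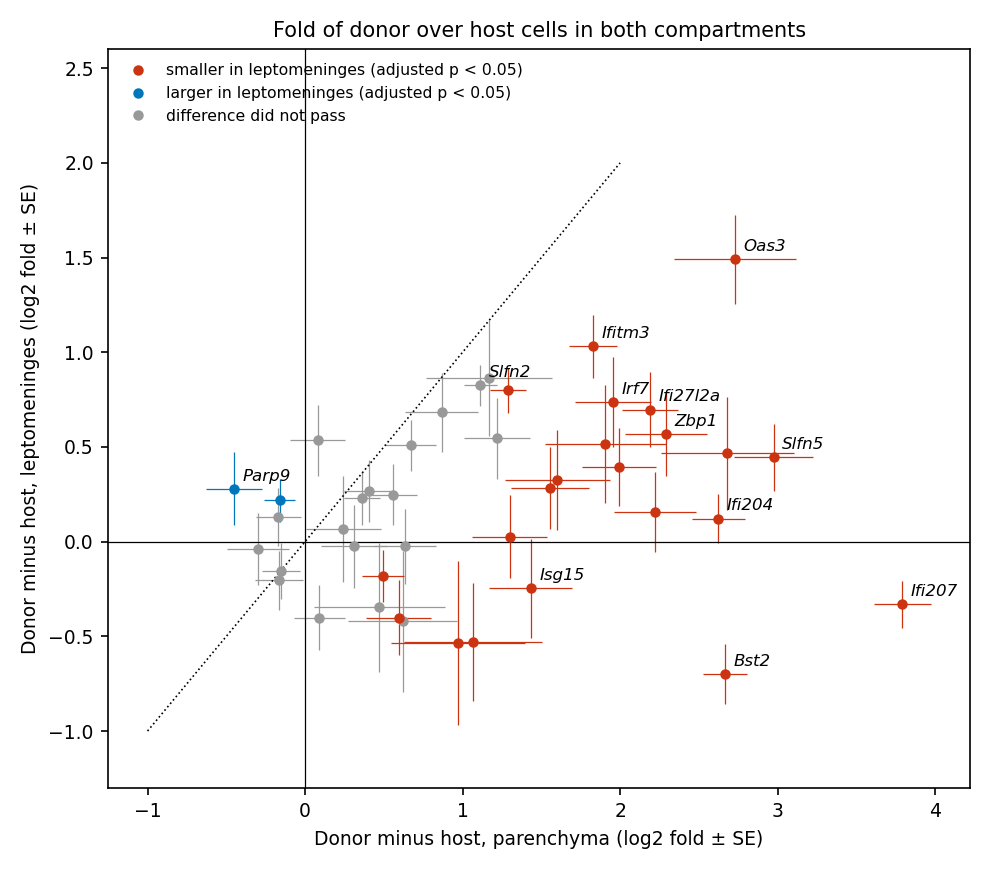
Log2 difference donor minus host of each member in the parenchyma (horizontal) and in the leptomeninges (vertical), with standard errors; the dotted line marks equal differences. Red marks the 22 members with a smaller signed difference in the leptomeninges by the interaction test, and blue the 2 with a larger one. Grey marks the members that did not pass. Bst2 and Ifi207 lie far to the right and below 0.

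The compartments were also compared within each origin; these comparisons use the same libraries as the donor-to-host comparisons, so their values are given side by side and not as separate support. In host cells, 36 of 43 members were higher in leptomeningeal cells than in microglia and 0 were lower, at medians of 1.55 for the members and 0.08 for all genes. Across all genes 56.7% passed, 31.1% as higher and 25.7% as lower. In 30 members the 4 leptomeningeal and 8 microglial libraries did not overlap, against 42.4% of all genes. All 7 genes of RNA decay and translation arrest, all 4 IFIT genes and all 3 Schlafen genes were among the 36. Among members with a mean of at least 10 CPM in the libraries compared, Ifi207 (5.30 ± 0.17) led, followed by Ifitm3 (4.41 ± 0.16), Slfn5 (3.95 ± 0.24), Ifi204 (3.81 ± 0.16) and Oas2 (3.26 ± 0.25). Irf7 was 2.71 ± 0.25, Oasl2 2.46 ± 0.24, Isg15 2.27 ± 0.28, Usp18 1.76 ± 0.24, Ifit3 1.34 ± 0.21, Bst2 1.26 ± 0.16 and Stat2 0.93 ± 0.17 on the same log2 scale, and each passed. Members that did not pass were Irf9 (−0.21 ± 0.14), Ddx58 (0.24 ± 0.15), Dhx58 (0.29 ± 0.19), Herc6 (0.75 ± 0.38), Mx2 (−0.01 ± 0.27), Lgals3bp (0.19 ± 0.15) and Parp9 (−0.08 ± 0.19). Fibroblast and mural markers (0.350% to 0.532% of UMIs against 0.0022% to 0.0030%), mitochondrial transcripts (1.57% to 1.93% against 0.114% to 0.349%) and neutrophil markers (0.194% to 0.590% against 0.0165% to 0.114%) were also higher in the host leptomeningeal libraries, and their part in the result was not tested. Microglia markers took 0.549% to 0.988% of UMIs in these leptomeningeal libraries and 2.88% to 3.50% in host microglia. Their part was not tested either.

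In donor cells, 35 members were higher and 2 lower in leptomeningeal cells than in microglia, at medians of 0.86 for the members and −0.03 for all genes. Across all genes 62% passed, 30.5% as higher and 31.5% as lower, and in 9 members the libraries did not overlap, against 25.6% of all genes. The 2 lower members were Bst2 (−2.10 ± 0.14, adjusted p = 2.89e-13) and Irf9 (−0.34 ± 0.11, adjusted p = 0.00801). Ifitm3 had the largest difference (3.61 ± 0.15, adjusted p = 1.21e-17), with 1359 to 2073 CPM against 108 to 223 CPM. Oas3 (2.48 ± 0.23), Trim25 (1.96 ± 0.13), Slfn2 (1.80 ± 0.10) and Ifi27l2a (1.68 ± 0.17) came next among members with a mean of at least 10 CPM. All 6 sensors passed here, including Ddx58 (0.54 ± 0.14), Ifih1 (0.95 ± 0.19) and Dhx58 (0.74 ± 0.17), and so did Irf7 (1.49 ± 0.21), Oasl2 (1.19 ± 0.20) and Stat2 (0.80 ± 0.15). Isg15 (0.59 ± 0.24, adjusted p = 0.0364) and Usp18 (0.49 ± 0.21, adjusted p = 0.0381) passed narrowly and lost the call under 12 and 16 alternatives. Ifit3 did not pass (0.35 ± 0.19). Without the donor microglia libraries control 1 and mutant 4, 34 members were higher and 1 lower. With library totals, 27 members were higher and 2 lower, and the median of all genes was −0.28. Neutrophil markers took 3.65% to 9.78% of UMIs in these leptomeningeal libraries and 0.0964% to 1.03% in donor microglia. Monocyte markers took 0.299% to 0.609% against 0.0359% to 0.083%. Fibroblast and mural markers took 0.337% to 0.478% against 0.0385% to 0.0702%. Astrocyte markers went the other way, at 0.0149% to 0.0215% against 0.105% to 0.48%. The part of these transcripts in the result was not tested.

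Of the 100 other pathway genes, 60 were higher and 13 lower in host leptomeningeal cells than in host microglia, against 31.1% and 25.7% of all genes. In donor cells 61 were higher and 14 lower, against 30.5% and 31.5%. In host cells Sting1 (−1.76 ± 0.11), the Toll-like receptor chaperone Unc93b1 (−1.28 ± 0.11) and the DNA sensor gene Cgas (−0.82 ± 0.16) were lower in the leptomeninges. Ifngr1 (−2.24 ± 0.12) was lower as well. In donor cells Myd88 (1.14 ± 0.10), Stat3 (1.28 ± 0.10) and the feedback inhibitor Socs3 (1.44 ± 0.11) were higher in the leptomeninges, and Ifnar1 (−1.59 ± 0.12), Unc93b1 (−0.99 ± 0.08) and Sting1 (−0.63 ± 0.09) were lower. Of 55 other interferon-induced genes, 41 were higher and 1 lower in host cells, and 36 were higher and 3 lower in donor cells.

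Members with and without the response element in the promoter are set side by side as a description. Besides the members with windows above, Ifit1, Oas1a, Rsad2, Slfn8, Stat2 and Trim30a hold the ISRE core. In the parenchyma, the 13 members with the core had a median donor-minus-host difference of 1.43 with 11 higher. The 19 without it had 0.67 with 12 higher. In the leptomeninges the medians were −0.25 with 1 higher and 2 lower, and 0.28 with 7 higher. Between the compartments of host cells the medians were 2.27 with 13 higher and 1.55 with 15 higher. Between the compartments of donor cells they were 0.80 with 9 higher and 1 lower, and 1.06 with 16 higher and 1 lower. Both members lower in donor leptomeningeal cells, Bst2 and Ifi207, hold the core, and the other 11 members had no promoter in the table.

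The comparison of mutant with control marrow asked whether the recombined hDNMT3A allele changed these genes. In donor microglia no member passed in edgeR (2 had an unadjusted p under 0.05), against 0.0892% of all genes. The median log2 difference, mutant minus control, was 0.05 over the members and 0.00 over all genes, with a range of −0.70 to 0.74. The member median was 0.39 with a covariate for astrocyte and neuron markers and 0.15 without the libraries control 1 and mutant 4, and again no member passed. In 0 of the 43 members the libraries did not overlap, against 3.53% of all genes. For 31 of the 43 members the 95% interval lay within ±1 on the log2 scale. Usp18 had the smallest p, at 38.5, 20.3, 18.9 and 26.7 CPM in mutant against 14.6, 10.1, 16.4 and 22.5 CPM in control libraries. The groups overlapped, and the Usp18 difference was 0.74 ± 0.34 (adjusted p = 0.462). Xaf1 (0.52 ± 0.24, adjusted p = 0.466) and Ifitm3 (0.43 ± 0.21, adjusted p = 0.499) came next. DESeq2's Wald test and limma with voom weights also called no member.

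In donor leptomeningeal cells no member passed (2 with an unadjusted p under 0.05), against 0.0487% of all genes, at a median of 0.07 and with 41 of 43 intervals within ±1. In 2 members the libraries did not overlap, against 3.62% of all genes. Ifi44 had the smallest p, at 25.1, 32.5, 9.61 and 10.1 CPM in mutant and 13.2, 11.4, 8.80 and 14.4 CPM in control libraries. The 2 highest mutant libraries of Ifi44 lay above the controls and the other 2 among them (0.67 ± 0.30, adjusted p = 1). Sp100 (−0.26 ± 0.12) and Slfn2 (0.22 ± 0.11) followed.

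Host cells of the chimeras carry no Vav-Cre, so this contrast describes the surroundings of the mutant cells. In host microglia no member passed (4 with an unadjusted p under 0.05), against 0.0649% of all genes, with a median of 0.14 and 30 of 43 intervals within ±1, and in 0 the libraries did not overlap, against 3.39% of all genes. Slfn2 had the smallest p, at 57.1, 49.1, 64.4 and 40.9 CPM in mutant and 36.3, 42.3, 48.0 and 38.9 CPM in control libraries, which overlapped (0.39 ± 0.14, adjusted p = 1). Oasl1 (0.99 ± 0.45) and Sp100 (0.32 ± 0.15) followed. In host leptomeningeal cells, with 2 libraries a group, no member passed (2 with an unadjusted p under 0.05), against 0% of all genes, with a median of 0.25 and 24 of 43 intervals within ±1. There 10 members had libraries that did not overlap, against 33.9% of all genes. Ifi35 (0.42 ± 0.19), Ifi204 (0.49 ± 0.22) and Mx1 (0.70 ± 0.37) had the smallest p. The test of whether the genotype difference itself differed called no member between donor and host microglia (1 with an unadjusted p under 0.05; 0.0324% of all genes passed) and none between donor leptomeningeal cells and donor microglia (0 with an unadjusted p under 0.05; 0% of all genes passed). DESeq2 and voom called no member in any of these 6 genotype tests.

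Of the 100 other pathway genes, 1 passed in a genotype test. Apobec3, an interferon-induced cytidine deaminase gene that restricts retroviruses, was at 155, 150.3, 148 and 160.1 CPM in control and 98.7, 106, 87.0 and 91.0 CPM in mutant donor leptomeningeal libraries. All mutant libraries lay below all control libraries (−0.66 ± 0.12, edgeR adjusted p = 0.00356). In donor microglia Apobec3 was at 242, 160.3, 208 and 220.2 CPM in control and 129, 100.3, 150.02 and 109 CPM in mutant libraries, again with no overlap (−0.74 ± 0.13, adjusted p = 0.0044). The donor microglia call was lost under 5 alternatives, among them leaving out control 1 and mutant 4 (−0.60, adjusted p = 0.103). The difference in genotype effect between donor and host microglia was −0.89 ± 0.17 (adjusted p = 0.0191), and that call was lost under 13 alternatives, with adjusted p of 0.0531 to 0.282.

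Libraries of 1 group also differed from each other in these genes. The mutant library numbered 1 had the highest member share of its group in all 4 populations. Each library was compared with the mean of the other libraries of its group over the 38 members with a mean of at least 10 CPM. Mutant library 1 was above the others in 34 of 38 members in donor microglia, 33 in host microglia, 35 in donor leptomeningeal cells and 33 in host leptomeningeal cells. The median log2 deviation was 0.50, 0.39, 0.40 and 0.42, while 55.3%, 55.1%, 47.2% and 42.4% of all 8467 genes at that level lay above the others. Control library 1 was above in 32 members in donor microglia and 33 in donor leptomeningeal cells, but in 18 and 17 in the host populations. The lowest libraries were mutant donor leptomeningeal 4, above the others in 2 of 38 members, and mutant donor leptomeningeal 3, in 4. In host leptomeningeal cells there were only 2 libraries a group, so 1 is the mirror of the other. When all mutant libraries numbered 1 were left out, a setting chosen after the data were seen, the median mutant-minus-control difference went from 0.05 to −0.10 in donor microglia, from 0.14 to 0.02 in host microglia, from 0.07 to −0.05 in donor leptomeningeal cells and from 0.25 to −0.06 in host leptomeningeal cells, and again no member passed. The labels do not say that libraries of the same number share an animal.

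**Figure D5:**
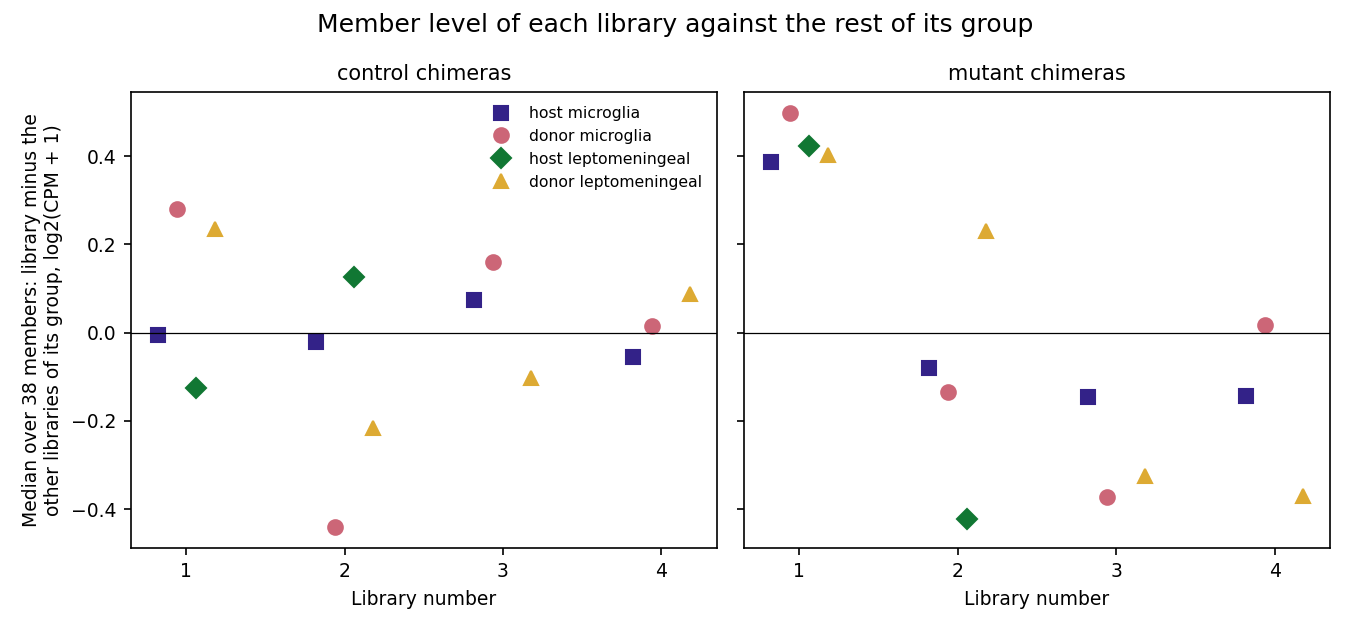
Median log2 deviation of the 38 more abundant members in each library from the mean of the other libraries of its group, by library number, with control groups in 1 panel and mutant groups in the other. Mutant libraries numbered 1 lie at 0.39 to 0.50 in all 4 populations; the other libraries lie between −0.44 and 0.28.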

How the data were processed

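Each of the 28 libraries had 3 columns in a deposited table. Whole-number UMI counts per gene, which the authors deposited as raw, were used for every result. The authors' normalized signal and their rlog-type values on a log2 scale, named so per the file headers, were not used. Reads were mapped to mm10, per the submitters' processing notes; the aligner and counter are not given in the sources used here.

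Counts were fitted in edgeR 4.0.16 (R 4.3.3) with TMM factors, filterByExpr over the 8 groups (12327 of 14617 genes, all 43 members among them) and a robust quasi-likelihood test of all 28 libraries with 1 coefficient per group, with Benjamini-Hochberg adjustment at 0.05. Each standard error is the log2 fold change divided by the square root of F. CPM and shares used library totals. Origin and compartment comparisons averaged both genotypes. DESeq2 1.42.0, limma 3.58.1 (voom), other scalings, no filter, covariates, a replicate block and leaving out libraries were alternatives. The fit was also run on simulated data, and no result of that run is given here.

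The members and all gene lists were chosen with earlier results of these data known. The text names 9 fixed members, the 5 members with the largest called folds in each direction at a mean of at least 10 CPM, up to 3 genes of each pathway list with the smallest adjusted p, and, where no member passed, the 3 with the smallest p. Other members are named by their level or fold. The median depth was 1634654 UMIs, and depth limits cover counting error only.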

Additional observations from a re-analysis of the deposited data

Results flagged for a closer look

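The member share and the 9 fixed members were screened in the groups with 4 libraries, 60 sets in all, and 2 had a library far from the other 3, where chance gives about 1 set in 20. Oasl2 was at 58.2 CPM in mutant donor microglia library 1, and the nearest other library was at 30.9 CPM. Bst2 was at 1914 CPM in control donor microglia library 2, and the nearest other library was at 2519 CPM.

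The difference between donor and host cells differed between the compartments for 13 named members by the interaction test in edgeR, leptomeninges minus parenchyma on the log2 scale. It was smaller in the leptomeninges for Ifi207 (−4.12), Bst2 (−3.36), Slfn5 (−2.53), Ifi204 (−2.50), Oas2 (−2.06), Isg15 (−1.68), Usp18 (−1.27), Oasl2 (−1.27), Irf7 (−1.22), Ifit3 (−0.996) and Ifitm3 (−0.80). The signed difference was larger for Parp9 (0.73) and Ifi35 (0.38). For both it was negative in the parenchyma and positive in the leptomeninges.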

How the results depend on the processing

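Over 167 fold changes of named genes, 3994 of 4133 values under alternative settings kept their direction and side of the threshold, 122 lost and 5 gained a call, and 12 changed sign; the causes were not tested. No genotype test called a member in any setting. The Usp18 difference between donor and host leptomeningeal cells, 0.03, was −0.21 with library totals and −0.12 to 0.16 with 1 library left out, below 0 in 6 of the 12 cases. The Irf9 difference there was −0.0059 with library totals. The interaction of Stat2 ran from −0.241 to 0.0564 with 1 library left out and was 0.0809 without all mutant libraries numbered 1. That of Irf9 was 0.0086 without the donor microglia libraries control 1 and mutant 4. Members called between donor and host leptomeningeal cells ranged from 6 to 15 with 1 library left out.

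Ifi35 lost its interaction call under 14 settings, and Stat2 and Parp9 lost their parenchymal calls under 8 and 6. With an astrocyte and neuron covariate the genotype median in donor microglia was 0.39. Without Bst2, Ifitm3 and Ifi27l2a the mean member share was 0.258 percent (control) and 0.269 percent (mutant) in donor leptomeningeal, 0.252 and 0.289 in host leptomeningeal, 0.172 and 0.177 in donor microglia and 0.134 and 0.134 in host microglia libraries.

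Correlations of deviations between libraries of equal number ran from −0.18 to 0.16 within a genotype. Between control and mutant libraries, they ran from −0.26 to 0.18. These values over all genes do not settle whether equal numbers share an animal, and the libraries were treated as unpaired. With the replicate block, 31 members were higher and 1 lower in the parenchyma, 13 and 1 in the leptomeninges, 35 and 2 between donor compartments and 36 and 0 between host compartments, and 0 passed for genotype. Low depth limits Ifi44, Oas3, Ifit1, Cmpk2, Ifit3b and Rsad2, whose host microglia means of 1.21 to 2.75 CPM lie near the limit of 3 UMIs there, 1.03 to 1.97 CPM.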
